A study of Mus musculus with 42 samples.

Results

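Oxidative phosphorylation is carried out by protein complexes of the mitochondrial inner membrane, and the genes described here encode their nuclear-encoded subunits. Members were taken by gene symbol alone, as every annotated symbol that begins with Nduf, Uqcr or Atp5, or with Cox4, Cox5, Cox6, Cox7 or Cox8, and the symbols Sdha, Sdhb, Sdhc and Sdhd. This gave 81 of the 14442 genes named on the first array design (21997 probes) and 87 of the 17501 on the second (36924 probes), with 77 genes on both. All 81 genes of the first design had enough values to be tested, in a table of 18904 probes. By complex they were 30 genes of complex I, 3 of complex II, 8 of complex III, 15 of complex IV, 16 of complex V, 6 assembly factors of complex I, Cox7a2l, and 2 symbols that name pseudogenes (Ndufs5-ps and Atp5k-ps1).

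The series set RNA of whole skin tumours and skins against a commercial universal mouse reference RNA on 42 2-colour arrays. The groups were squamous cell carcinomas (6), high-risk papillomas (10), low-risk papillomas (9, after 2 arrays of 1 tumour were averaged) and normal skin (6), all on the first design, and 10 papillomas of unknown risk on the second. All tumours came from female Sencar mice that were 7 to 8 weeks old at initiation and had received DMBA, a carcinogen that initiates tumours, and TPA, which promotes them. The carcinomas, and 1 unknown papilloma, had been treated for many weeks by their labels, and the labels of the other tumours state no time. Normal skin was adult and untreated, and its strain is not given. No label says that the samples came from separate animals, so p-values measure the spread between these samples.

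Electrons enter the chain at complex I, NADH dehydrogenase, or at complex II, succinate dehydrogenase, which also works in the citric acid cycle. They pass through ubiquinone to complex III, the cytochrome bc1 complex, and through cytochrome c to complex IV, cytochrome c oxidase, which reduces oxygen. The proton gradient that complexes I, III and IV build is used by complex V, the ATP synthase. Several small subunits of complex IV exist as a widely expressed form and a form of heart and skeletal muscle, and skin holds both epidermis and a layer of muscle and fat beneath it.

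Values are log2 of sample over reference, centred on the median of each array, so a value of 0 is the level of a typical probe and not the absence of RNA. The sign rests on the likely reading that the deposited ratios are Cy5 over Cy3. In bulk tissue, fewer cells of a type and less RNA per cell cannot be told apart.

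Some arrays stood apart. Normal skin 1 and carcinoma 6 were nearly identical across 16718 probes (r = 0.984, where the points are probes and not independent), with a median size of difference of 0.065, and across 68 member probes (r = 0.984, 0.0445). The next closest pair, high-risk papillomas 7 and 6, had r = 0.719. The 2 arrays of low-risk tumour 2-52A, 1 of them with swapped dyes, had r = 0.306 over 19899 probes, with a median size of difference of 1.15. Over 77 member probes they had r = 0.427, with a median size of difference of 1.28. The arrays were also cut into 5 sets by the pattern of empty probes. The number of sets was chosen and not found in the data, and how separate they are was not tested. Set A held high-risk papilloma 10 and normal skins 3 to 6, and set B held 6 of the 9 low-risk papillomas. Set C held carcinomas 5 and 6, high-risk papillomas 6 to 9 and normal skin 1, and set D held carcinomas 1 to 4, high-risk papilloma 5, low-risk papillomas 6, 7 and 10 and normal skin 2. Set E held high-risk papillomas 1 to 4 alone. The median spread of an array ranged from an SD of 0.7 in set C to 1.59 in set E.

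The median over the 81 members was highest in high-risk papillomas and lowest in normal skin. It had a lowest, median and highest value of -0.50, -0.34 and -0.18 over 6 carcinomas, of -0.51, -0.12 and 0.16 over 10 high-risk papillomas, of -0.90, -0.35 and -0.07 over 9 low-risk papillomas, and of -0.80, -0.52 and -0.35 over 6 normal skins. All 4 groups overlapped. High-risk papilloma 5 was the lowest of its group, and held the lowest high-risk value for 36 of the 81 members, while high-risk papilloma 3 held the highest for 29. Carcinoma 1 held the lowest carcinoma value for 44 members.

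**Figure D1:**
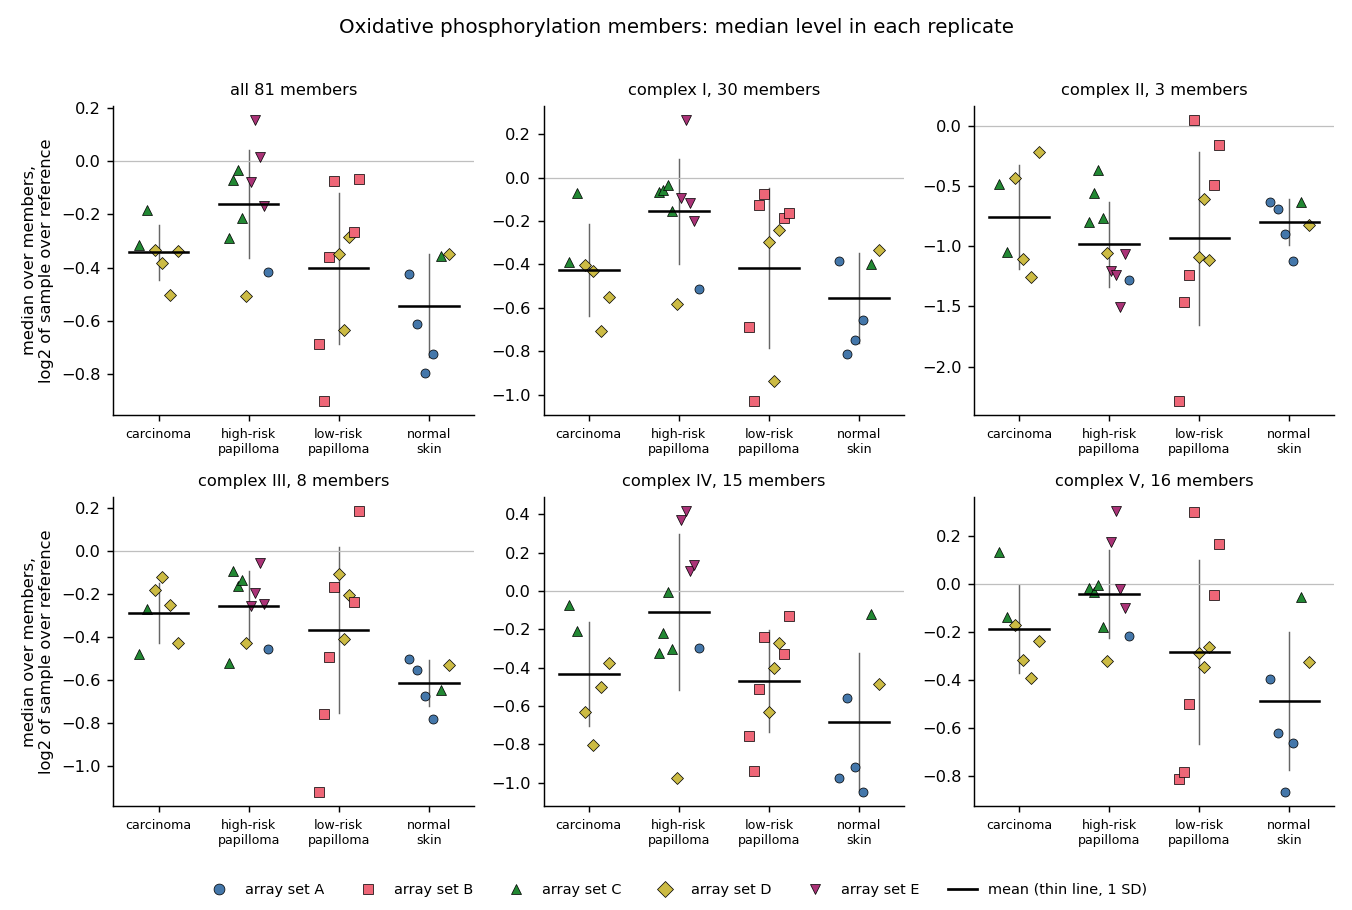
Median over the members of each complex in each replicate (y axis, log2 of sample over reference) for carcinomas, high-risk papillomas, low-risk papillomas and normal skin (x axis). Points are replicates marked by array set, thick lines means and thin lines 1 SD. In complex IV the 4 high-risk papillomas of set E lay above 0, and 3 of the 4 normal skins of set A lay at -0.92 or lower.

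In complexes I, III, IV and V the replicate medians averaged highest in high-risk papillomas and lowest in normal skin, and complex II did not follow. Carcinomas, high-risk papillomas, low-risk papillomas and normal skin averaged -0.43, -0.15, -0.42 and -0.56 for complex I. For complex V they averaged -0.19, -0.04, -0.28 and -0.49. For complex IV the replicate medians averaged -0.43 ± 0.27 in carcinomas (SD, n = 6), -0.11 ± 0.41 in high-risk papillomas (n = 10), -0.47 ± 0.27 in low-risk papillomas (n = 9) and -0.68 ± 0.36 in normal skin (n = 6). For complex III they averaged -0.29 ± 0.14 in carcinomas, -0.26 ± 0.16 in high-risk papillomas, -0.37 ± 0.39 in low-risk papillomas and -0.61 ± 0.11 in normal skin. Complex II lay below 0 in every group on average, at -0.76 ± 0.43, -0.98 ± 0.36, -0.93 ± 0.72 and -0.80 ± 0.19 in the same group order. These levels are descriptions, and no test was made on them. Within complex IV the sets differed too: in high-risk papillomas the median was 0.25 over the 4 arrays of set E, -0.26 over the 4 of set C, -0.30 on the 1 array of set A and -0.98 on the 1 array of set D.

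High-risk papillomas against normal skin gave the most calls. Of the 81 members 10 were higher and 0 lower (limma, adjusted p under 0.05 over all probes), which is 12.3%, where 5.01% of all 18904 probes were called in either direction, 2.57% higher and 2.44% lower. At an unadjusted p under 0.05 there were 26 (32.1%), beside 19.7% of all probes. Complex IV had 6 of its 15 members called, complexes I, III and V 1 each, and the last was a pseudogene symbol. The median difference over the members was 0.36 on the log2 scale, with 54 above 0 and 27 below, beside -0.004 over all probes. Without normal skin 1 and carcinoma 6 the calls were 13 higher and 1 lower, where 7.32% of all probes were called. With the array set as a block 0 members were called and 0.222% of all probes, and the median was 0.13. That fit compares groups within sets, in every comparison. Set E, with 4 of the 10 high-risk papillomas, and set B, with 6 of the 9 low-risk papillomas, hold 1 group each. These sets add nothing to its differences. Leaving out 1 normal skin of 3, 4, 5 or 6 gave 4, 5, 3 and 2 calls (2.35%, 2.46%, 2.51% and 1.92% of all probes). Leaving out high-risk papilloma 3 or 4 gave 5 and 6 (3.20% and 3.40% of all probes). Leaving out high-risk papilloma 5 gave 16, of which 14 were higher (6.78% of all probes).

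**Figure D2:**
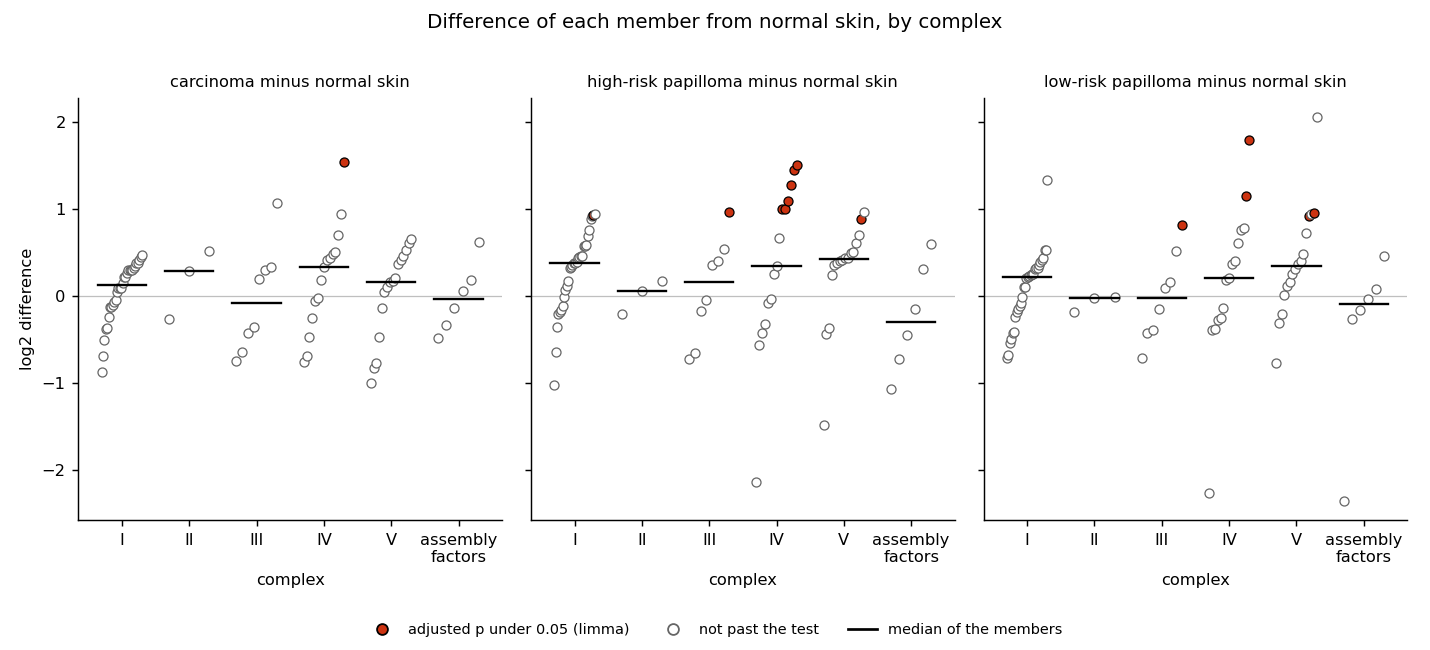
Log2 difference of each member from normal skin (y axis) by complex (x axis), for carcinomas, high-risk papillomas and low-risk papillomas. Points are genes, filled where the adjusted p was under 0.05, and lines are medians, so that 6 of the filled points for high-risk papillomas stand in complex IV.

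Cox7a2, the widely expressed form of subunit VIIa of cytochrome c oxidase, had the smallest p. Its lowest, median and highest values were -1.15, -0.22 and 0.80 in high-risk papillomas, against -1.95, -1.45 and -0.81 in normal skin. The difference was 1.28 ± 0.26 (SE), 2.43-fold, with an adjusted p of 0.0048 by limma. Of the 10 high-risk papillomas 9 lay above the highest normal skin, and high-risk papilloma 5 fell among them. With the array set as a block the difference was 0.56 (limma adjusted p = 0.401).

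Cox6a1, the widely expressed form of subunit VIa, was measured in 6 high-risk papillomas and 5 normal skins. High-risk papillomas 1, 2, 3, 4, 5 and 10 had 0.45, 0.19, 0.83, 0.57, -0.99 and 0.03, against -0.75, -1.18, -1.69, -1.48 and -1.53 in normal skins 2 to 6. All but high-risk papilloma 5 lay above every normal skin, and the difference was 1.51 ± 0.33, 2.84-fold, with a limma adjusted p of 0.0106. The difference was 1.503 within set A, where high-risk papilloma 10 was the one high-risk array, and -0.24 within set D, on 1 array each.

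Ndufa4, first described in complex I and later assigned to complex IV, is counted here with complex IV. Its lowest, median and highest values were 0.25, 1.09 and 2.25 in high-risk papillomas, against -1.01, -0.77 and 1.70 in normal skin. Normal skin 1 was the highest of its group and the other 5 normal skins lay below 0. The difference was 1.46 ± 0.35, 2.74-fold (limma, adjusted p = 0.0146). Without normal skin 1 and carcinoma 6 it was 1.86 (limma adjusted p = 0.00033). Within the sets it was 1.82 in A, -1.02 in C, where normal skin 1 was the one normal skin, and 1.22 in D.

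Cox5b and Cox5a, small nuclear-encoded proteins on the matrix side of cytochrome c oxidase, were both called. Cox5b had -1.04, -0.51 and -0.28 in high-risk papillomas as lowest, median and highest, against -2.21, -1.75 and -0.58 in normal skin, a difference of 1.00 ± 0.24 (limma, adjusted p = 0.0138). All of its high-risk papillomas were above the normal skin mean, and 7 of 10 were above every normal skin. Cox5a had -0.98, -0.19 and 1.42 in high-risk papillomas, against -1.42, -1.31 and -0.04 in normal skin, a difference of 1.09 ± 0.30 (limma, adjusted p = 0.0317). Here 4 of 10 high-risk papillomas lay above every normal skin, those of set E. Cox6c, another small subunit of complex IV, differed by 1.00 ± 0.28 (limma, adjusted p = 0.0329).

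Of the other complexes, Uqcrb, a subunit of complex III that helps to form the ubiquinone site, had -0.01, 0.55 and 1.48 in high-risk papillomas, against -0.90, -0.41 and 0.30 in normal skin. The difference was 0.97 ± 0.25 (limma, adjusted p = 0.022), with 8 of 10 high-risk papillomas above every normal skin. Ndufb2, an accessory subunit of the membrane arm of complex I, had -1.13, 0.0015 and 0.84 in high-risk papillomas, against -1.32, -0.82 and -0.68 in normal skin. It differed by 0.94 ± 0.25 (limma, adjusted p = 0.0255), and high-risk papilloma 5 was the one replicate not above all normal skins. Atp5l, subunit g of the ATP synthase, differed by 0.89 ± 0.25 (limma, adjusted p = 0.0299). Atp5k-ps1 differed by 1.22 ± 0.35 (limma, adjusted p = 0.0417), and its probe may share sequence with the ATP synthase subunit e gene that it copies, so its source is uncertain.

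**Figure D3:**
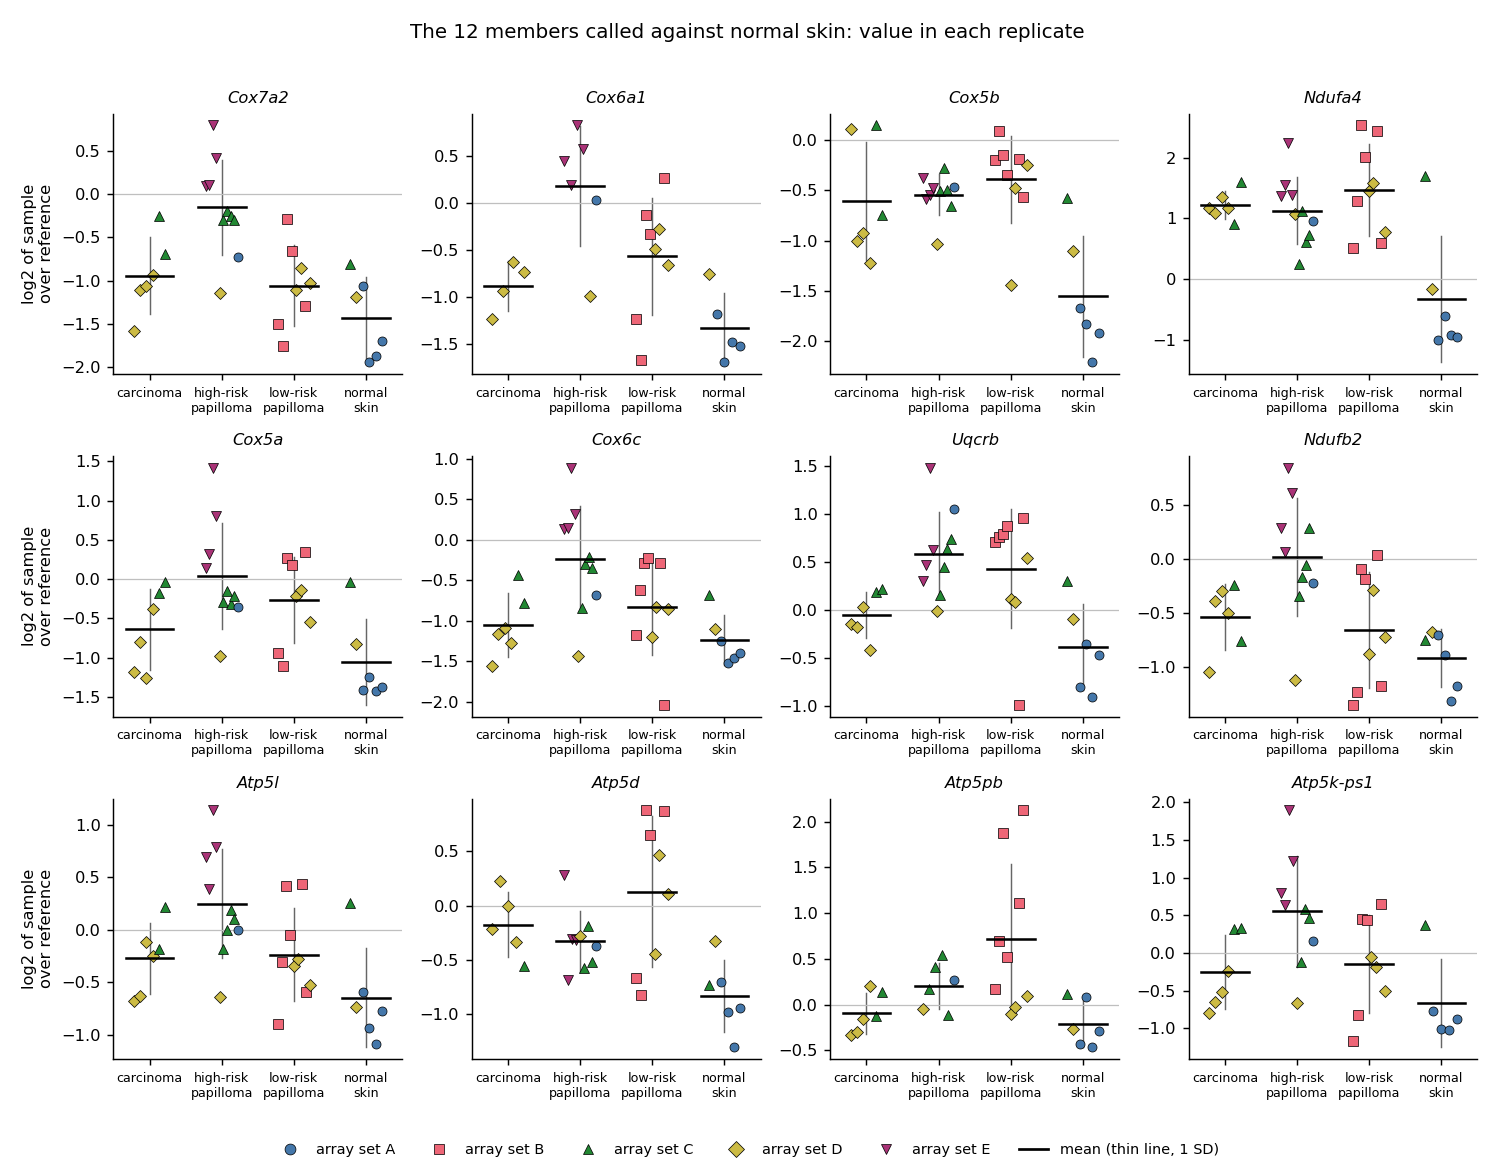
Value of the 12 members called in any comparison (y axis, log2 of sample over reference) in each carcinoma, high-risk papilloma, low-risk papilloma and normal skin (x axis). Points are replicates marked by array set, thick lines means and thin lines 1 SD. High-risk papilloma 5, the one high-risk array of set D, lies low in its group in Cox7a2, Cox6a1 and Cox6c, and normal skin 1, of set C, lies high in its group in Ndufa4 and Atp5l.

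Just outside the threshold were Atp5j, coupling factor 6 of the ATP synthase (0.97, limma adjusted p = 0.0512), and Ndufs6, a small subunit of the NADH-oxidising arm of complex I (0.94, limma adjusted p = 0.0641, on 6 high-risk papillomas and 5 normal skins). Some members had negative differences that did not pass. Atp5a1, the alpha subunit of the ATP synthase head, differed by -1.48 ± 0.57 (limma, adjusted p = 0.135) and Ndufa13, a complex I subunit also known as GRIM-19, by -1.01 ± 0.37 (limma, adjusted p = 0.102). For both, high-risk papilloma 5 was the highest of its group, at 1.82 and 2.47, and without it the adjusted p was 0.0396 and 0.0135. On the 1 array each of set D these 2 differences were 0.28 and 0.98.

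Promoters of 3 called members are shown because nuclear-encoded subunits are textbook targets of NRF1, of the ETS family factor GABP and of YY1. RefSeq promoters (build GRCm38.p6) matched 64 of the 81 members by symbol, with 69 promoters, and 9 of the 12 called members. The 250 bases before each start were searched on both strands for the ETS core CGGAAG, for the NRF1 palindrome and for AANATGGC (YY1), and no 2 of these motifs overlapped in a member promoter. CGGAAG was in 24 of 69 member promoters (34.8%) and in 13.6% of all 32851 promoters. The NRF1 motif was in 11 (15.9%), against 3.74% of all, and AANATGGC in 6 (8.70%), against 3.91%. Of the 10 promoters of called members 4 held CGGAAG, 1 the NRF1 motif and 0 AANATGGC, and 6 held none of the 3. Member promoters also had a median of 15 CG pairs, against 6 in all promoters. The promoters of Cox6a1 (minus strand, chr5:115348959-115349208), Cox5a (plus strand, chr9:57520982-57521231) and Ndufa4 (minus strand, chr6:11907451-11907700) are printed 5′ to 3′ with motif matches in capitals, and Ndufa4 has none in this window.
Cox6a1: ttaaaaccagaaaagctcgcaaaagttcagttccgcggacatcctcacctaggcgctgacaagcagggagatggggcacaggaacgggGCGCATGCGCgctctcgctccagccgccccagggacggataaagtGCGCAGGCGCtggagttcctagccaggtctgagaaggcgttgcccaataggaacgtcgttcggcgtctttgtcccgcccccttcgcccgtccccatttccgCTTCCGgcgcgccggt
Cox5a: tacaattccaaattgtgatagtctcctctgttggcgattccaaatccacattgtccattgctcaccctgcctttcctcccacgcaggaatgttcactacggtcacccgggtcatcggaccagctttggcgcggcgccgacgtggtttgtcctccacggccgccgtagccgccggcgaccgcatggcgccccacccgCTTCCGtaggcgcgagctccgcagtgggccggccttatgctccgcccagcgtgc
Ndufa4: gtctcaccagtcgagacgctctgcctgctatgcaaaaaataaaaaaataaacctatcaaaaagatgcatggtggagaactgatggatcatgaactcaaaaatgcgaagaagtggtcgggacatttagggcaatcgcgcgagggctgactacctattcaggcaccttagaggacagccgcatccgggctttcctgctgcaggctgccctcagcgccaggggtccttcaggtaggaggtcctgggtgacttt

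Low-risk papillomas against normal skin had 5 members higher and 0 lower (6.17%), where 7.55% of all probes were called in either direction, 3.94% higher and 3.61% lower. They were Ndufa4, Cox5b, Uqcrb, Atp5d and Atp5pb. The median difference over members was 0.17, with 47 above 0 and 34 below, beside -0.02 over all probes. With the array set as a block 0 members and 0.037% of all probes were called, and the median was 0.05. The 6 low-risk papillomas of set B add nothing to that median. Leaving out normal skin 5 gave 2 calls (4.61% of all probes). Leaving out normal skin 3, 4 or 6 gave 3 each (3.94%, 4.94% and 4.24% of all probes). So did leaving out low-risk papilloma 4, 5 or 9 (7.35%, 5.59% and 8.18%).

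Ndufa4 differed most among these. Its lowest, median and highest values were 0.51, 1.44 and 2.53 in low-risk papillomas, against the normal skin values given above, and all 9 low-risk papillomas lay above the normal skin mean. The difference was 1.79 ± 0.36, 3.46-fold (limma, adjusted p = 0.00268), and 2.20 without normal skin 1 and carcinoma 6. Within set D, 3 low-risk papillomas against 1 normal skin, it was 1.43. Cox5b had -1.44, -0.26 and 0.08 in low-risk papillomas and differed by 1.16 ± 0.25 (limma, adjusted p = 0.00421), with 8 of 9 above every normal skin and low-risk papilloma 6 the exception.

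The other 3 belong to complexes III and V. Uqcrb had -0.98, 0.71 and 0.96 in low-risk papillomas and differed by 0.82 ± 0.26 (limma, adjusted p = 0.0467), a call that was lost in 21 of the 31 fits without 1 replicate. Low-risk papilloma 8 was its one low value. Atp5d, the delta subunit of the rotor of the ATP synthase, had -0.82, 0.29 and 0.88 in low-risk papillomas, against -1.31, -0.84 and -0.33 in normal skin, a difference of 0.96 ± 0.26 (limma, adjusted p = 0.0199). Atp5pb, subunit b of its peripheral stalk, had -0.10, 0.52 and 2.12 in low-risk papillomas, against -0.47, -0.28 and 0.12 in normal skin, a difference of 0.93 ± 0.28 (limma, adjusted p = 0.0413). For Atp5pb the 6 low-risk papillomas above every normal skin were those of set B, an array set with no normal skin.

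Complex I had no call in this comparison, where 7.55% of all probes were called. Ndufab1, the mitochondrial acyl carrier protein, differed by 1.34 ± 0.48 on 6 low-risk papillomas and 5 normal skins (limma, adjusted p = 0.0882), and Ndufb11, a subunit of the membrane arm, by -0.67 ± 0.25 (limma, adjusted p = 0.0964).

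Carcinomas against normal skin had 1 member higher and 0 lower (1.23%), where 1.16% of all probes were called and 0.254% higher. It was Ndufa4, with 0.91, 1.17 and 1.59 as lowest, median and highest in carcinomas. All 6 carcinomas lay above the normal skin mean and below normal skin 1, and the difference was 1.54 ± 0.39, 2.92-fold (limma, adjusted p = 0.0443). This call was lost in 16 of the 31 fits without 1 replicate, and without normal skin 1 and carcinoma 6 the difference was 1.87. The median difference over members was 0.16, beside -0.003 over all probes. With the array set as a block 0 members and 0.0741% of all probes were called.

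Members that did not pass in carcinomas include Cox5b (0.94 ± 0.27, limma adjusted p = 0.0834) and Cox6b1, the widely expressed form of subunit VIb (0.70 ± 0.26, limma adjusted p = 0.219). Uqcrc1, a core protein of complex III on the matrix side, differed by 1.08 ± 0.43 (limma, adjusted p = 0.279) and Atp5e, the epsilon subunit of the ATP synthase, by -0.82 ± 0.31 (limma, adjusted p = 0.246). Of the 10 members called in high-risk papillomas, Cox7a2 averaged -0.94 ± 0.45 in carcinomas (SD, n = 6) and Cox6c -1.05 ± 0.39 (n = 6), and Cox6a1 had -1.24, -0.94, -0.63 and -0.74 in carcinomas 1 to 4. The 3 comparisons share their normal skins.

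Between papilloma groups 0 members passed in high-risk against low-risk papillomas, where 0.667% of all probes were called. At an unadjusted p under 0.05 there were 18 members (22.2%), beside 17.3% of all probes, 10 of them in complex I. The median difference was 0.16, with 58 members above 0 and 23 below, beside 0.02 over all probes. Ndufb7, an accessory subunit of complex I, had 0.07, 0.91 and 2.34 as lowest, median and highest in high-risk papillomas, against -0.89, -0.01 and 0.54 in low-risk papillomas. All 10 high-risk papillomas were above the low-risk mean and 7 above every low-risk papilloma, and the difference was 1.12 ± 0.28 (limma, adjusted p = 0.0526). Cox7a2 differed by 0.91 ± 0.24 (limma, adjusted p = 0.0615) and Ndufa7, another accessory subunit of complex I, by 0.61 ± 0.18 (limma, adjusted p = 0.0936).

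Ndufab1 went the other way in this comparison. It had -0.44, 0.33 and 2.42 in high-risk papillomas, against 0.84, 2.08 and 2.98 in the 6 low-risk papillomas with a value, a difference of -1.35 ± 0.41 (limma, adjusted p = 0.102). Of the high-risk papillomas 7 lay below every low-risk papilloma, and high-risk papilloma 5 was the highest. Without that replicate 8 members (6 higher and 2 lower) and 3.80% of all probes were called, among the members Ndufb7, Cox7a2, Ndufa7 and Ndufab1, with adjusted p of 0.0123, 0.0131, 0.0329 and 0.0234. Leaving out low-risk papilloma 6 gave 2 calls (2.97% of all probes). Leaving out high-risk papilloma 7, 9 or 10 gave 1 each (0.510%, 0.405% and 0.948% of all probes). So did leaving out low-risk papilloma 4 or 7 (0.633% and 0.764%). With the array set as a block 0 were called, the median was 0.03, and no probe of the whole table was called. Set D alone holds both papilloma groups, with 1 high-risk papilloma.

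In carcinomas against low-risk papillomas 0 members passed, where 1.12% of all probes were called, 0.354% higher and 0.767% lower, and 10 had an unadjusted p under 0.05 (12.3%, beside 16.1% of all probes). The median difference was -0.06, beside -0.007 over all probes. Atp5g2, one of the genes for the c ring of the ATP synthase, had -0.17, 0.49 and 1.17 in carcinomas, against 0.63, 2.07 and 3.89 in 8 low-risk papillomas. All 6 carcinomas were below the low-risk mean and 4 below every low-risk papilloma, and the difference was -1.73 ± 0.49 (limma, adjusted p = 0.0696). It passed without low-risk papilloma 2 or 6 or high-risk papilloma 3, at adjusted p of 0.0361, 0.0366 and 0.0403. Atp5pb differed by -0.81 ± 0.28 (limma, adjusted p = 0.14).

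In carcinomas against high-risk papillomas 0 members passed, where 0.0423% of all probes were called, 0.0212% in each direction. At an unadjusted p under 0.05 there were 18 members (22.2%), beside 10.5% of all probes, and the median difference was -0.22, with 29 above 0 and 52 below, beside -0.01 over all probes. The smallest p belonged to Atp5md, a small ATP synthase subunit also called DAPIT, at -0.83 ± 0.26 (limma, adjusted p = 0.23), followed by Cox7a2 at -0.79 ± 0.26 (limma, adjusted p = 0.28) and Cox6a1 at -1.07 ± 0.35 (limma, adjusted p = 0.288). All 6 carcinomas lay below the high-risk mean for Cox7a2, and 1 of them lay below every high-risk papilloma. Atp5g2 differed by -1.37, Ndufb3, a subunit of the membrane arm of complex I, by -0.88 and Uqcrb by -0.64, with adjusted p of 0.29, 0.299 and 0.375 by limma. With the array set as a block the median was -0.03. Atp5md had 2 probes, with means of 0.24 and -1.09 in carcinomas and of 1.09 and -0.26 in high-risk papillomas, and the values above are those of the second. On both probes the mean was lower in carcinomas than in high-risk papillomas, and levels of different probes are not comparable.

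Complex II had no call in any of the 6 comparisons, with smallest adjusted p of 0.433, and none of its 3 genes had an unadjusted p under 0.05. Of all probes 0.0423% to 7.55% were called, and 10.5% to 23.4% had an unadjusted p under 0.05. The 3 genes are too few to be set against these shares. Sdha, the flavoprotein that oxidises succinate, had -0.56, 0.11 and 0.83 in carcinomas, -1.50, -0.45 and 0.22 in high-risk papillomas, -1.55, -0.25 and 0.35 in low-risk papillomas and -0.63, -0.22 and 0.29 in normal skin. Sdhb, its iron-sulfur partner, had medians of -1.05, -1.41, -1.49 and -1.64 in these groups, and Sdhc, a membrane anchor, of -1.08, -0.74, -1.08 and -0.69. The groups overlapped for each gene. In complex III, Uqcrh, the hinge protein, differed from normal skin by -0.64 in carcinomas, -0.72 in high-risk papillomas and -0.38 in low-risk papillomas, and Uqcr11 by 0.20, 0.40 and 0.10, with no adjusted p under 0.206 and 0.353. Ndufa10, an accessory subunit of complex I, differed by -0.06, 0.45 and 0.53, with no adjusted p under 0.164.

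None of the heart and muscle isoforms passed in any of the 6 comparisons, where 0.0423% to 7.55% of all probes were called. Cox7a1, the muscle form of subunit VIIa, had -2.97, -1.28 and -0.09 in 6 high-risk papillomas, and -7.66, -0.71 and 0.98 in low-risk papillomas, against 0.29, 1.23, 0.09, 1.92 and 0.24 in normal skins 1 to 5. In 6 carcinomas it had -0.50, -0.03 and 0.58. High-risk papillomas and normal skin did not overlap, at a difference of -2.13 ± 0.96 (limma, adjusted p = 0.21), and low-risk papillomas differed by -2.26 ± 0.88 (limma, adjusted p = 0.116). Low-risk papilloma 8 lay far below its group. Without it the high-risk difference was unchanged at -2.13, with a limma adjusted p of 0.0298, as the model takes its spread over all groups. The low-risk difference was then -1.49 and did not pass.

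The other muscle forms had smaller differences between group medians. Cox6a2 had medians of -0.04 in carcinomas, 0.25 in high-risk papillomas, -0.02 in low-risk papillomas and 0.03 in normal skin, and Cox8b had 0.66, -0.24, 0.41 and 0.09. Cox4i2, the lung form of subunit IV, differed from normal skin by 0.51 in carcinomas, -0.07 in high-risk papillomas and -0.28 in low-risk papillomas, none past the test. Cox8a, the widely expressed counterpart of Cox8b, had -0.05, 0.09, -0.01 and 0.28, and Cox4i1, the common form of subunit IV, had -1.22, -1.43, -1.45 and -0.91. Of the 11 tissue isoforms measured 3 were called in high-risk papillomas against normal skin (Cox7a2, Cox6a1 and Ndufa4). In each of the other comparisons with normal skin 1 was called, Ndufa4. Of all probes 5.01% were called in high-risk papillomas, 7.55% in low-risk papillomas and 1.16% in carcinomas. The 11 isoforms are too few to be set against these shares. Skeletal muscle markers were also measured. Over 12 tested of 17 listed genes the mean per replicate ranged from 0.11 to 0.63 in carcinomas, from -0.46 to 1.04 in high-risk papillomas, from -0.20 to 0.84 in low-risk papillomas and from 0.12 to 1.78 in normal skin. Acta1, skeletal actin, and Tnnc2, fast troponin C, fell in high-risk papillomas (-3.30 and -2.23, limma adjusted p = 0.0273 and 0.0167) and in low-risk papillomas (-4.24 and -2.25, 0.00404 and 0.0302). The part of muscle in the Cox7a1 values was not tested.

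**Figure D4:**
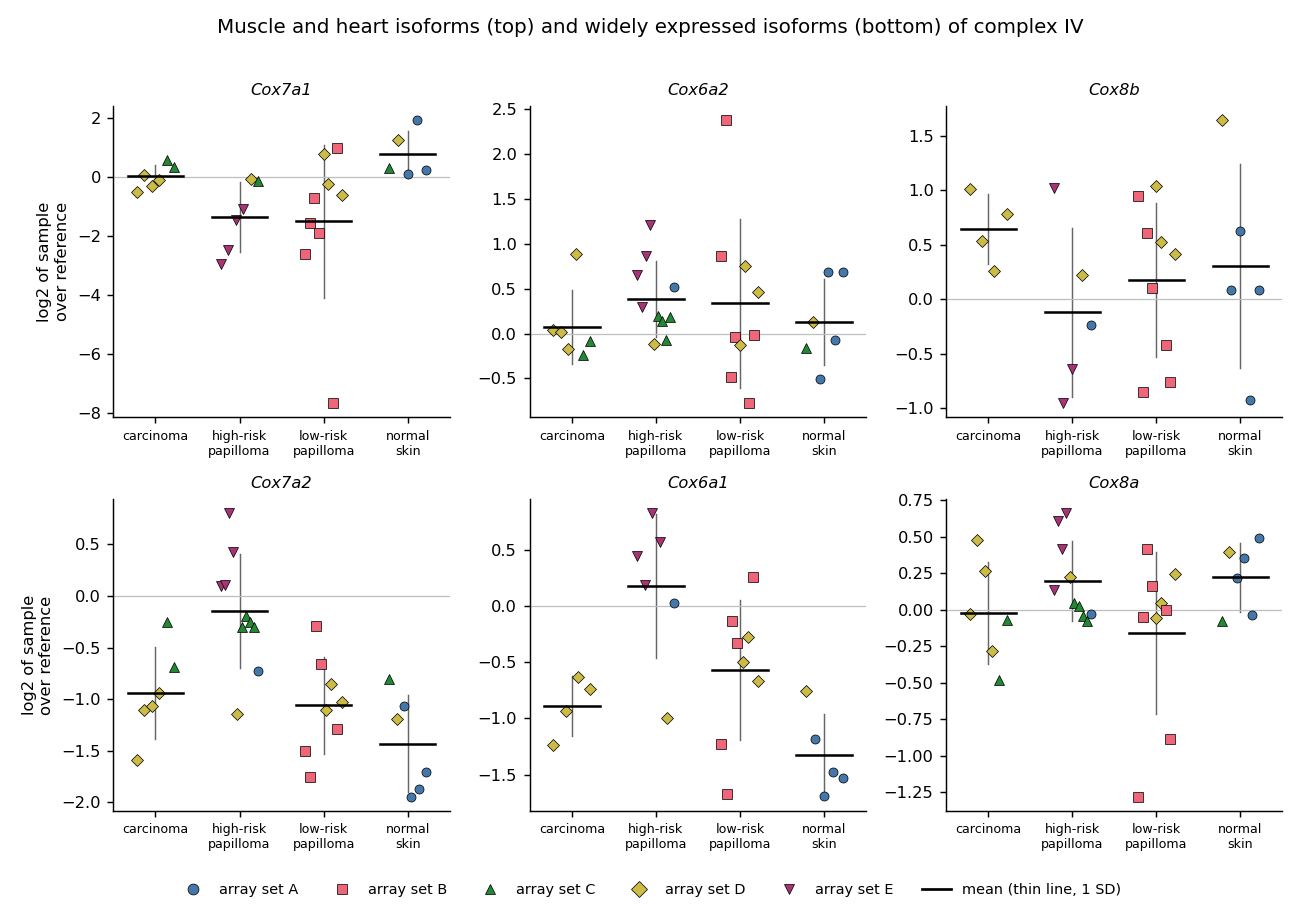
Values of muscle and heart isoforms (top row) and of their widely expressed counterparts (bottom row) of complex IV in each replicate (y axis, log2 of sample over reference) by group (x axis), with array sets, means and 1 SD as marked. Cox7a1 reaches -0.09 at most in the 6 high-risk papillomas with a value and is at least 0.09 in the 5 normal skins, and Cox7a2 is higher in 9 of 10 high-risk papillomas than in every normal skin.

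The 11 measured genes listed as central subunits mix subunits with redox centres or catalytic sites and structural ones. Of these the structural Cox5a and Cox5b were called in high-risk papillomas against normal skin and Cox5b in low-risk papillomas. Of all probes 5.01% and 7.55% were called in these comparisons, and 11 genes are too few to be set against such shares. The median differences of the 11 genes from normal skin were 0.30 in carcinomas, 0.36 in high-risk papillomas and 0.26 in low-risk papillomas. Each time 8 of 11 were above 0. Ndufs1, the largest iron-sulfur subunit of complex I, had medians of -0.49 in carcinomas, 0.09 in high-risk papillomas, 0.23 in low-risk papillomas and -0.36 in normal skin, with differences from normal skin of -0.12, 0.37 and 0.36 (SE 0.26, 0.23 and 0.24) that did not pass. Uqcrc2 differed by 0.30, 0.36 and 0.17 and Uqcrfs1, the Rieske iron-sulfur protein, by -0.35, -0.04 and -0.15, none past the test. Atp5b, the catalytic beta subunit of the ATP synthase, differed by 0.62, 0.51 and 0.26, also short of the threshold. Ndufs7, Ndufv1 and Ndufv2 of complex I had no adjusted p under 0.508 in any of the 6 comparisons.

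Assembly factors, which help to build complex I without staying in it, had no call in the 6 comparisons. Of all probes 0.0423% to 7.55% were called, and 6 genes are too few to be set against these shares. Ndufaf3 had the widest spread, with -0.62, -0.27 and -0.19 as lowest, median and highest in carcinomas, -3.71, -2.19 and 0.08 in high-risk papillomas, -7.99, -3.08 and 0.32 in 7 low-risk papillomas and -2.02, -1.10 and 0.60 in normal skin. Its difference of carcinomas from low-risk papillomas was 2.98 ± 0.95 (limma, adjusted p = 0.107), and without low-risk papilloma 6 the adjusted p was 0.0269. Ndufaf2 had medians of -0.51, -0.13, -0.42 and -0.78 in the same group order. Ndufaf8 differed between carcinomas and high-risk papillomas by -0.79 ± 0.32 (limma, adjusted p = 0.38), and Ndufaf5 had no adjusted p under 0.569.

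Calls among other genes of mitochondrial respiration and among cell markers come from short lists. Of all probes 5.01%, 7.55% and 1.16% were called in high-risk papillomas, low-risk papillomas and carcinomas against normal skin. Between tumours the share was at most 1.12%. The lists are too short to be set against these shares. Of 10 tested regulators and DNA maintenance factors of the mitochondrion and 12 carriers and uncoupling proteins, 0 were called in any of the 6 comparisons. Of 19 electron carriers and other assembly genes, Cox19, which handles copper for complex IV, rose in high-risk papillomas against normal skin (1.06 ± 0.26, limma adjusted p = 0.0179) and Etfdh, which passes electrons from fat oxidation to ubiquinone, rose in low-risk papillomas (0.74 ± 0.19, limma adjusted p = 0.0177). Of 16 citric acid cycle genes, Idh3g, a subunit of isocitrate dehydrogenase, rose in low-risk papillomas (0.78 ± 0.24, limma adjusted p = 0.0459) and Suclg2, of succinate-CoA ligase, in carcinomas (1.23 ± 0.30, limma adjusted p = 0.0325), both against normal skin. Keratinocyte markers, 6 tested of 8 listed, had 0 calls in the 6 comparisons, and their mean per replicate had a lowest value of 1.70 over all 31 replicates. Markers of other cells were called in part. Of 9 tested adipocyte markers Lep was lower in carcinomas and in high-risk papillomas, and in low-risk papillomas Fabp4 was higher and Retn and Lpl lower. Of 8 macrophage and leukocyte markers Cd2 was higher and Tyrobp lower in high-risk papillomas, while Fcer1g and Cd2 were higher and Cd3e lower in low-risk papillomas. Dcn, of 6 fibroblast markers, was lower in high-risk papillomas, and Pecam1, of 5 endothelial markers, in low-risk papillomas, all against normal skin. Cd2 was also lower in high-risk than in low-risk papillomas. The part of these cells in the members' values was not tested.

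The 10 papillomas of unknown risk were normalised apart on the second design and were compared with no group. Their median over 87 members had a lowest, median and highest value of -0.75, -0.34 and 0.03. By complex the medians over tumours were -0.37 for complex I, -0.94 for complex II, -0.07 for complex III, -0.62 for complex IV and -0.12 for complex V. Ndufa4 was above 0 in all 10, at 1.11, 1.55 and 4.06. Cox5a was above 0 in 9 of 10, at -0.52, 1.34 and 3.11, and Uqcrb in 8 of 10, at -0.76, 0.89 and 1.84. Cox5b, taken as the median of 3 probes, was spread from -0.81 to 2.70 with a median of 0.78, and Cox7a2 was above 0 in 1 of 10, at -1.54, -0.83 and 0.24. Sdha, Sdhb and Sdhc were below 0 in all 10, with medians of -0.69, -1.62 and -1.19, and Sdhd, which only this design carried, in 9 of 10, with a median of -1.13. Cox8b and Uqcrq each had 1 extreme value in the same tumour, unknown papilloma 4, at 8.59 and 8.88.

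**Figure D5:**
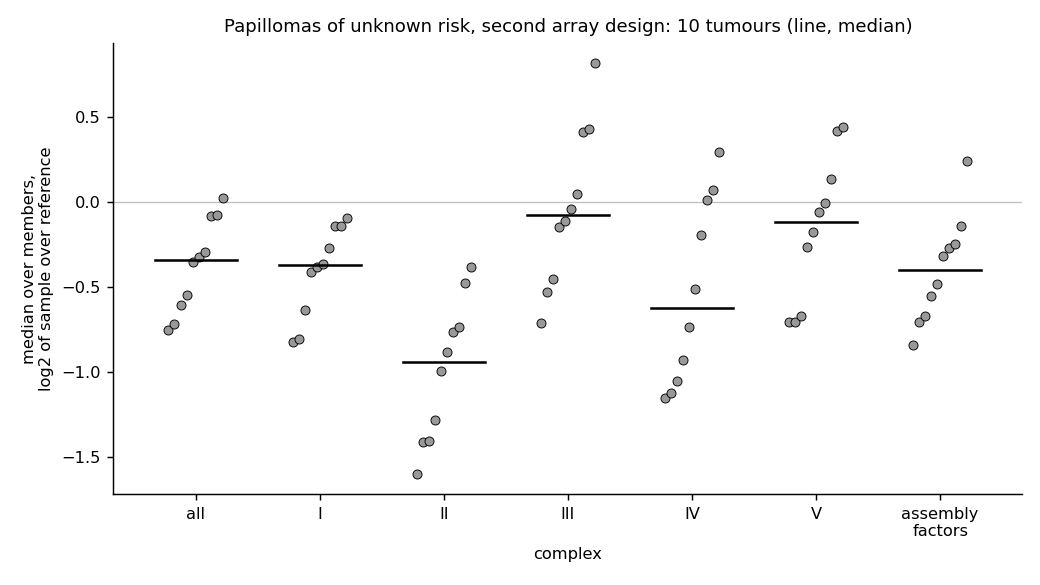
Median over the members of each complex (x axis) in each of the 10 papillomas of unknown risk (y axis, log2 of sample over reference). Points are tumours and lines medians, and the highest complex II value is -0.38.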

How the data were processed

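RNA of whole tumours and skins was hybridised with a universal mouse reference RNA on 2-colour arrays of 2 designs, 1 array per sample but for tumour 2-52A. The values are deposited log2 ratios of the 2 channels; the authors' background correction and normalization, and the log base and direction, are not given in the sources used here. Base 2 and Cy5 over Cy3 are the likely reading from the range of the values and the dyes in the labels. All ratios were negated except those of the array with swapped dyes, and each array was centred on its median. The 2 arrays of tumour 2-52A were averaged. Probes with values in at least 3 replicates of each group and 70% of all 31 were kept, 1 per symbol by the number of values. Symbols come from GEO's platform annotation, which can be old; on the first design it pairs 16076 probes with 1 gene and 288 with several, and 5633 are unnamed here. One linear model of the 4 groups was fitted to 18904 probes with limma 3.58.1 (R 4.3.3) and moderated by empirical Bayes, with Benjamini-Hochberg adjustment over all probes and a threshold of 0.05, and the procedure was tested on simulated data. Arrays held 16286 to 21494 values on the first design and 26373 to 36286 on the second, and the number of arrays limits the precision. For the 10 unknown papillomas the median over a gene's probes was taken, and they entered no test.

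The members and lists were chosen with earlier results of these data known. Named genes were the called members, the 2 members with the smallest p of each complex in each comparison, and the listed tissue isoforms, core subunits and succinate dehydrogenase genes; which of their values to print was chosen after they were seen. Alternatives were normalization, centring, filters, the treatment of 2-52A, array set, database number range, tumour code and replicate number as blocks, array weights, only the groups compared, and leaving out replicates. Samples with the same replicate number were not treated as pairs in the main fit. Figures were drawn with matplotlib 3.10.9.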

Additional observations from a re-analysis of the deposited data

Results flagged for a closer look

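Samples far from the others of their group were sought with Dixon's ratio at the 95% level in 144 groups of values, from 29 genes and 7 medians. It found 12, where chance gives about 1 in 20 groups. High-risk papilloma 5 was the lowest of its group in the median of complex IV (-0.976), in Cox5b (-1.038) and in Ndufa7 (-1.066), and the highest in Ndufa13 (2.469). Normal skin 1, nearly identical to carcinoma 6, was the highest normal skin in Ndufa4 (1.698), Atp5l (0.255) and Atp5k-ps1 (0.373). Low-risk papilloma 8 was the lowest of its group in Cox7a1 (-7.659) and Uqcrb (-0.983). Low-risk papilloma 6 was the lowest in Cox5b (-1.438), low-risk papilloma 4 the highest in Ndufaf8 (1.2), and carcinoma 4 the highest carcinoma in Ndufab1 (1.544).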

How the results depend on the processing

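Of the 16 called differences, 193 of 301 values under alternatives other than leaving out 1 replicate kept their direction and their side of the threshold, and 9 reversed; where values changed, the cause was not tested. Counts of members called in this paragraph are given with the share of all probes called under the same setting. For high-risk papillomas against normal skin they numbered 17 with quantile normalization (9.49% of all probes), 5 with the 2 arrays of 2-52A as separate replicates (3.45%), 32 with array weights (21.0%) and 6 of 78 within set A (12.3%, on 1 high-risk array). They numbered 0 within sets C (0%) and D (0.125%), within database numbers 51000 to 52000 (0.0478%), and with the array set (0.222%) or the database number range (0.439%) as a block. The median was 0.13 and 0.11 with these blocks, and 0.081, 0.14 and -0.19 within sets A, C and D. For low-risk papillomas against normal skin they numbered 9 with quantile (9.26%) and 8 with scale normalization (7.50%), 3 of 34 when measured in all replicates (10.8%), 2 with separate 2-52A arrays (6.48%), 2 with only the groups compared (3.18%) and 18, or 22.2% of members, with array weights, where 4150 of all 18904 probes were called. They numbered 0 within set D (0.400%), within that number range (0.0478%) and with the array set as a block (0.0370%). The median was -0.045 within set D and -0.042 with the number range as a block. For carcinomas against normal skin they numbered 3 with quantile normalization (4.71%), 15 with array weights (18.3%) and 2 without normal skin 1 and carcinoma 6 (2.62%). Within set D 1 was called, and it was lower (0.489%). They numbered 0 with 2-52A from its unswapped array (0.953%), with separate arrays (0.819%), within set C (0%), within the number range (0.0372%) and with the array set (0.0741%) or the number range (0.206%) as a block. The median was -0.11 within set D, -0.22 with the number range as a block and -0.10 within that range. For high-risk against low-risk papillomas 2 were higher without centring (0.762%), 1 was higher with separate 2-52A arrays (0.994%) and 3 were lower with array weights (6.61%). The median of 0.16 was 0.070 with quantile and 0.019 with scale normalization, and -0.15 within set D. For carcinomas against low-risk papillomas 1 was lower with quantile (0.952%) and scale normalization (0.614%) and within the number range (1.02%), and 6 were called with array weights (8.18%), 2 higher and 4 lower. The median of -0.06 was -0.25 with quantile and -0.24 with scale normalization, -0.18 with the replicate block and 0.0027 without centring. Against high-risk papillomas 5 were lower with array weights (1.97%), and the median was -0.034 with the array set as a block and 0.10 within set D.

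Same-numbered samples of different groups had a median correlation of -0.0103 over 37 pairs (-0.388 to 0.239). Pairs of different numbers had 0.00975 over 317 pairs (-0.558 to 0.603). No pairing by number showed in these medians, and a weak pairing could be missed within such ranges. With the replicate block 9 members were called in high-risk papillomas against normal skin (4.49% of all probes) and 3 in low-risk papillomas (5.09%). In carcinomas against normal skin 0 were called, where the main fit called 1.16% of all probes. In each comparison between tumours 0 were called, where at most 1.12% of all probes were.

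Sets C and D hold 1 normal skin each, and set D 1 high-risk papilloma. Differences that turned within set D, in high-risk papillomas against normal skin, were Ndufb2 (-0.45), Cox6c (-0.33), Cox6a1 (-0.24), Cox5a (-0.14), Ndufs6 (-0.23), Atp5a1 (0.28) and Ndufa13 (0.98), and within set C Atp5l (-0.23), Atp5k-ps1 (-0.064), Cox5a (-0.20), Ndufa4 (-1.02) and Atp5j (-0.16). In carcinomas against normal skin Ndufa4 (-0.45), Cox6b1 (-0.17) and Atp5e (0.064) turned within set C. That set holds carcinomas 5 and 6 and, as its only normal skin, normal skin 1, nearly identical to carcinoma 6. Every set C difference from normal skin, in high-risk papillomas too, rests on normal skin 1, so its direction is uncertain. Within set D, Cox7a2 (-0.15), Ndufa7 (-0.092) and Ndufab1 (0.24) turned between papillomas, and Cox6a1 (0.11) and Ndufaf8 (0.56) in carcinomas against high-risk papillomas. With quantile normalization some group levels, as medians over replicates, moved by more than the SD of their group (main values in brackets). In carcinomas they were -0.48 (-0.34) for all members, -0.44 (-0.26) for complex III and -0.63 (-0.44) for assembly factors. In normal skin they were -0.99 (-0.75) for complex II and -0.74 (-0.60) for complex III.

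Leaving out each replicate gave 2 to 16 calls in high-risk papillomas against normal skin, with 1.92% and 6.78% of all probes at those ends. Low-risk papillomas against normal skin had 2 to 7 (4.61% without normal skin 5 and 10.1% without low-risk papilloma 6). Carcinomas against normal skin had 0 to 2, where the main fit called 1.16% of all probes. High-risk against low-risk papillomas had 0 to 8, with 3.80% of all probes at the highest. Carcinomas had 0 to 2 against low-risk papillomas (3.92% of all probes at the highest) and 0 against high-risk papillomas (at most 0.158% of all probes). The median in carcinomas against low-risk papillomas ranged from -0.13 to 0.0052, above 0 in 2 of the 31 fits.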
